A study of Rattus norvegicus with 12 samples.

Results

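Rat Schwann cells that shared a culture with macrophages conditioned by the human pancreatic cancer line BxPC-3 were compared with Schwann cells grown alone. The comparison takes 6 of the study's 12 libraries, 3 a side, by their labels, and every gene that passed a filter on low counts, which was 12360 of the 30957 genes in the deposited table. The cells alone are labelled untreated, are titled Rsc96 and are described as HSC96. The co-cultures are labelled as grown with BxTAM, meaning tumour-associated macrophages induced by supernatant of BxPC-3. No allele, strain or agent other than the macrophages sets both groups apart in the labels, and every library carries the label of rat Schwann cells. The MDM co-cultures are labelled untreated as well. The sources used here give neither the species of the macrophages nor the way in which Schwann cell RNA was kept apart from theirs. The study's other 6 libraries are Schwann cells with monocyte-derived macrophages (MDM co-culture, headed PBMC in the table) and with macrophages that MIA PaCa-2, a further pancreatic cancer line, had induced (MiaTAM co-culture). The design text counts a further kind of tumour-induced macrophage, which is not analysed here. Whether replicate libraries stem from separate cultures is not stated in the labels. The p-values therefore reflect only the spread among these libraries, which may be technical.

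Schwann cells wrap and myelinate the axons of peripheral nerves. After nerve injury they leave the myelinating state, divide, release cytokines, trophic factors and matrix, and recruit macrophages, which clear debris. Pancreatic cancer is known for growth along nerves, where tumour cells, macrophages and Schwann cells meet, and macrophages exposed to tumour medium take on secretory states that differ from those of freshly derived ones.

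Library totals ran from 17491359 to 19351476 counts for cells alone and from 17400979 to 18677039 for BxTAM co-culture. Levels below are CPM, library-scaled counts with TMM factors, and changes are log2 fold changes of BxTAM co-culture over cells alone with their standard error, from edgeR's quasi-likelihood fit, with p adjusted over all 12360 genes. The first principal component of the 6 libraries held 75.0% of the variance and separated both groups. Counts of the mitochondrial chromosome made up 5.03% to 5.54% of a library in cells alone and 5.86% to 5.94% in BxTAM co-culture. Genes that every cell uses are listed at 0 in all 12 libraries, among them 3 of 28 ribosomal protein genes (Rpl8, Rps6 and Rplp2), the heat shock gene Hsp90aa1 and the myosin gene Myh9, so a 0 says only that a gene is listed at 0. Schwann cell markers were uneven. Sox10, which specifies the lineage, had 0 counts in cells alone and 1 count in BxTAM co-culture, S100b had 12 and 14 counts, and the cadherin gene Cdh19 is listed at 0, whereas Ncam1, Dhh and Nrg1 were measured and are described with the Schwann cell genes.

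About as many genes rose as fell. At an adjusted p under 0.05, 3710 genes were higher in BxTAM co-culture (30% of those tested) and 3814 were lower (30.9%). Changes of 2-fold or more were seen in 485 higher genes (3.92%) and 449 lower genes (3.63%). The median change over all genes tested was 0.00104, and among called genes it was 0.40 for higher and -0.41 for lower ones. Small changes were called as well: 2833 of the 7524 called genes changed by less than 1.25-fold. In 7276 of the called genes the 3 libraries of BxTAM co-culture did not overlap the 3 of cells alone. Over all tested genes 8149 (65.9%) had groups that did not overlap, so a lack of overlap alone does not single a gene out. Most list members named below were chosen by smallest p in this comparison, which favours groups that do not overlap. Of genes with a mean of at least 5 CPM over both groups compared, 150 rose and 318 fell by 2-fold or more. Low genes thus make up more of the large rises than of the large falls.

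**Figure D1:**
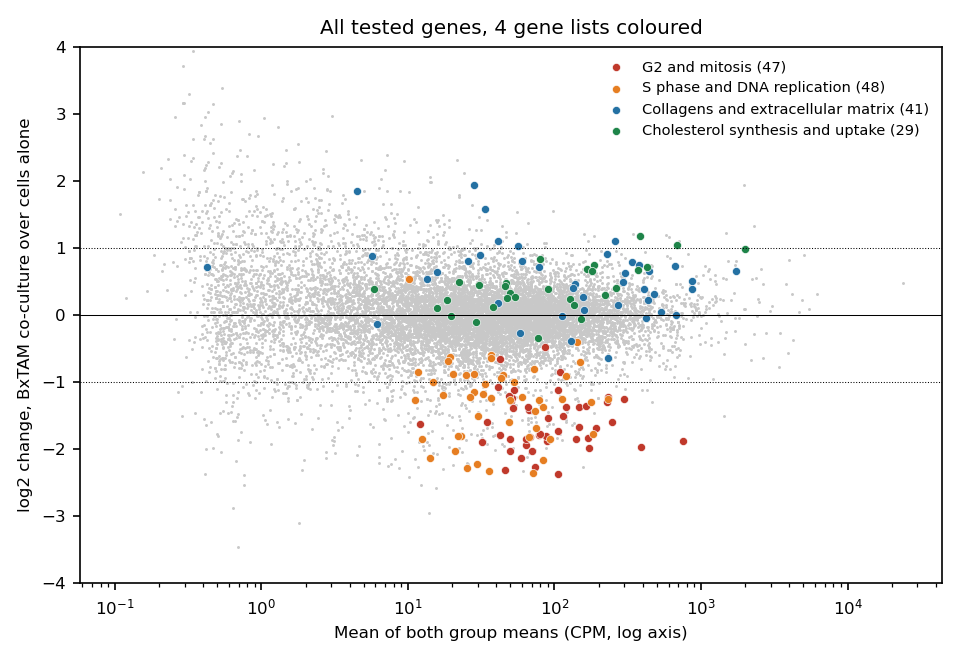
Change of each tested gene (vertical axis, log2 of BxTAM co-culture over cells alone) against its level (horizontal axis, mean of both group means in CPM, log scale); 12357 genes are drawn as points, 3 genes at 0 counts in a group are left out, 3 lie outside the vertical range, and dotted lines mark 2-fold. All 47 mitosis genes and 47 of 48 replication genes lie below 0, and most genes of the other coloured lists lie above it.

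Gene lists by function are used here to describe the changes. The lists and their members were chosen with earlier results of these data known, so their counts and medians are description only. By their medians, the lists of mitosis and replication stood lowest, followed by ribosome biogenesis, the amino acid response and the proteasome among nuclear genes. Lists of extracellular matrix, antigen presentation, matrix proteases and cholesterol synthesis stood highest, apart from marker lists of other cell types, which are described further on. The share of called members can be read against the 30% of all tested genes that were higher and the 30.9% that were lower.

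**Figure D2:**
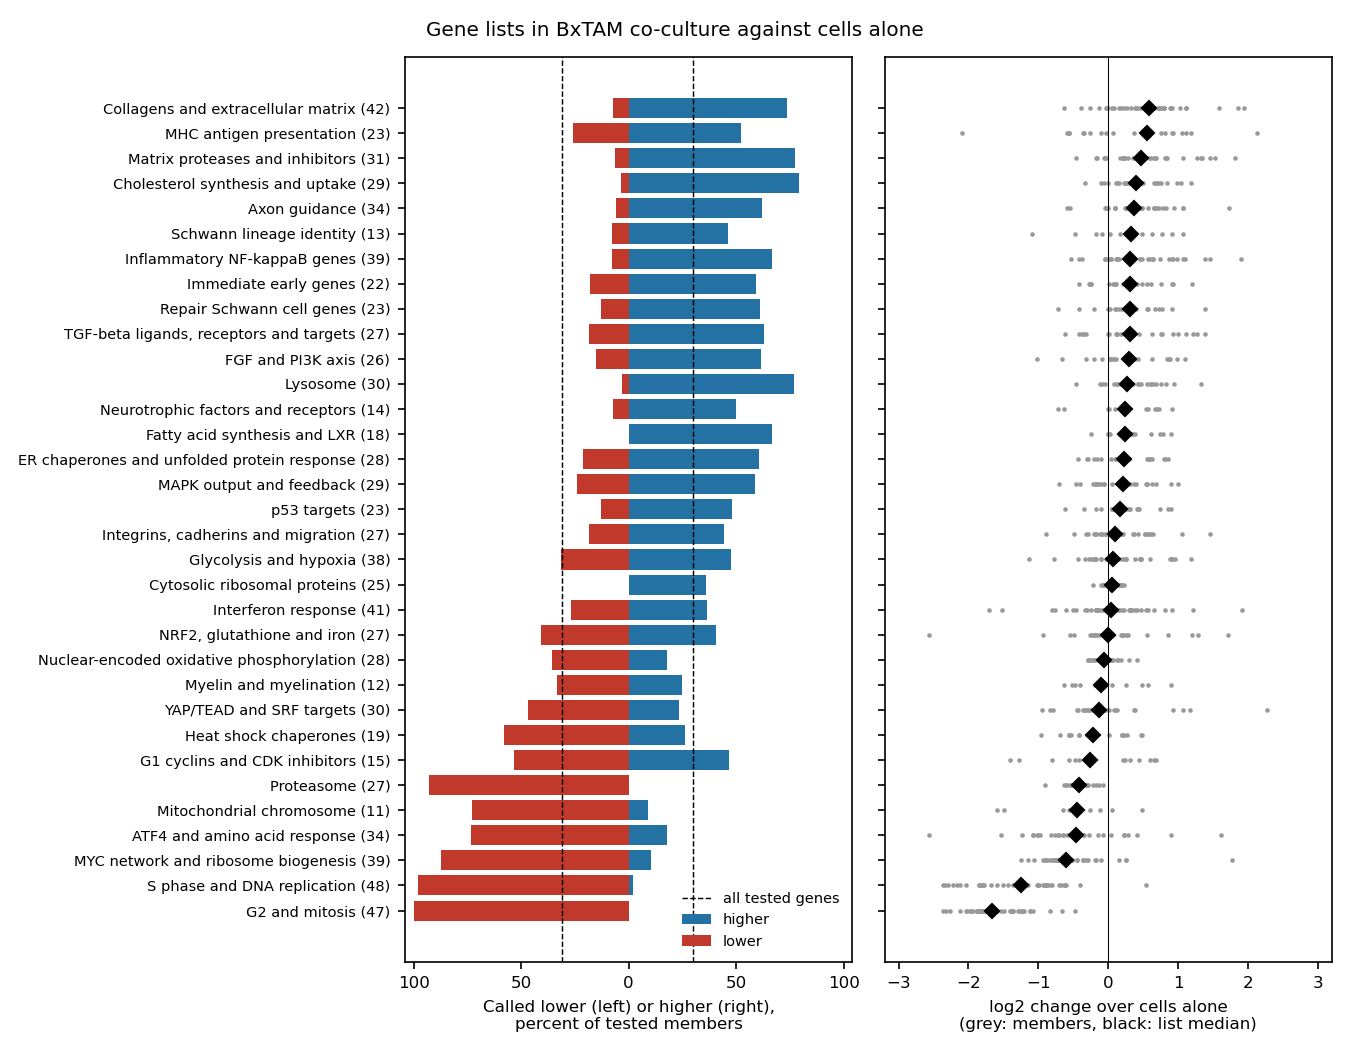
Left, percent of the tested members of each list (number in brackets) that were called higher (blue, to the right) or lower (red, to the left), with dashed lines at the shares of all tested genes; right, log2 change of each member (grey) and the list's median (black diamond). All 47 mitosis genes are on the lower side, and the members Sulf2 and Pmepa1, at 0 counts in cells alone, lie outside the range drawn.

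Genes of mitosis fell throughout. Of the G2 and mitosis list, 47 of 47 tested members were lower and 0 were higher, 44 of them by 2-fold or more, with a median of -1.66. Mki67, which encodes the Ki-67 antigen of dividing cells (chr1:207993895-208020454, Rnor_6.0), had 1241, 1201 and 1136 CPM in cells alone and 323, 341 and 311 CPM in BxTAM co-culture. The groups did not overlap, and the gene was 3.67-fold lower (log2 -1.88 ± 0.050, adjusted p 6.9e-17). Top2a, the topoisomerase that untangles replicated chromosomes, had 621, 608 and 622 CPM alone and 154, 163 and 159 CPM in co-culture. Ccna2, the cyclin of S phase and G2, had 124, 123 and 118 CPM alone and 24.1, 26.5 and 25.3 CPM in co-culture, again without overlap, and changed by -2.27 ± 0.056 (adjusted p 2.8e-17). Cdk1, the kinase that drives entry into mitosis, was at 166, 171 and 166 CPM alone and 58.7, 60.3 and 59.0 CPM in co-culture, a change of -1.50 ± 0.042. Cyclin B1 (Ccnb1, -1.88 ± 0.046) and the mitotic kinesins Kif20a (-1.98 ± 0.039) and Kif11 (-1.84 ± 0.042) changed by similar amounts, and Iqgap3, a scaffold protein of the dividing cell cortex, changed by -2.37 ± 0.066. In each of these genes every co-culture library lay below every library of cells alone, which for Iqgap3 was a condition of its choice as a large fall. Top2a, Ccna2, Ccnb1, Kif20a and Kif11 were chosen by smallest p in this comparison, so their lack of overlap is no separate support.

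Genes of DNA replication fell as well. Of 48 tested members of the S-phase list, 47 were lower and 1 was higher, 31 of the former by 2-fold or more, with a median of -1.24. Mcm3, a subunit of the replicative helicase (chr9:26914057-26932201, Rnor_6.0), had 148, 148 and 145 CPM alone and 42.7, 40.9 and 39.1 CPM in co-culture. No library of either group overlapped the other, and the change was -1.84 ± 0.047 (3.59-fold lower, adjusted p 3.6e-17). The helicase subunits Mcm4 (-1.78 ± 0.047) and Mcm6 (-1.30 ± 0.039) fell too, and Mcm10, which helps to activate the helicase, fell from 59.6 ± 0.701 to 11.9 ± 1.31 CPM (mean ± SD, n = 3). Enzymes that supply deoxynucleotides fell: Tk1, thymidine kinase, had 118, 123 and 117 CPM alone and 22.6, 25.1 and 22.0 CPM in co-culture, and the ribonucleotide reductase subunits Rrm2 and Rrm1 changed by -2.29 ± 0.078 and -1.25 ± 0.039. The member that rose was Ccne1, the cyclin of entry into S phase, named after its values were seen. It had 8.52, 8.11 and 8.14 CPM alone and 12.7, 11.3 and 12.1 CPM in co-culture, a change of 0.54 ± 0.10 (adjusted p 5.6e-05).

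The promoters of cell cycle genes are shown because members of both lists moved together, and because the letters known from their control differ between the lists. NF-Y binds CCAAT in many promoters of dividing cells, E2F factors bind TTTCGCGC or TTTGGCGC, mostly in genes of replication, and the cell cycle homology region (CHR), TTTGAA, is a hallmark of mitotic genes. The windows run from 250 bases before to 50 after the gene's start, on the strand of the gene, in RefSeq's annotation of the build GRCr8. The match of each motif was sought on both strands, and matches stand in capitals, as their reverse complement where they lie on the opposite strand. Mcm3 (chr9:30733697-30733996, minus strand) and Mcm6 (chr13:42404303-42404602, minus strand) are shown for replication, and in Mcm6 a TTTGGCGC and a reversed TTTCGCGC overlap. Both hold CCAAT and an E2F motif, which many members of their list do not. Top2a (chr10:84473044-84473343, minus strand), Mki67 (chr1:199952544-199952843, minus strand) and Cdk1 (chr20:19265043-19265342, plus strand) are shown for mitosis. In Mki67 a TTTGAA and a reversed CCAAT overlap. All of these mitosis promoters hold both CCAAT and TTTGAA, which many members of their list do not. Kif20a, Kif11 and Ccnb1, whose promoters are not shown, hold CCAAT but no TTTGAA. Cdk1 was chosen after its values and matches were seen.
Mcm3: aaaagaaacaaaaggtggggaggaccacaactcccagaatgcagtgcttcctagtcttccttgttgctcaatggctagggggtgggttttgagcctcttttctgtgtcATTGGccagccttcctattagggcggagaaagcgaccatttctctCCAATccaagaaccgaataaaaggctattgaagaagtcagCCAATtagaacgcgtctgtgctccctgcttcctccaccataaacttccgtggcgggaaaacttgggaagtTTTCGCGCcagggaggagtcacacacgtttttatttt
Mcm6: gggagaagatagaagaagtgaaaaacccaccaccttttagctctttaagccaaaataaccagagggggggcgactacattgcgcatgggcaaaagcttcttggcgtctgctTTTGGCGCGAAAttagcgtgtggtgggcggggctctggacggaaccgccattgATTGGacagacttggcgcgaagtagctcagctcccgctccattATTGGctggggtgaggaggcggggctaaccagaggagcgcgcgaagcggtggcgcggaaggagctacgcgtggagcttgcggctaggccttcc
Top2a: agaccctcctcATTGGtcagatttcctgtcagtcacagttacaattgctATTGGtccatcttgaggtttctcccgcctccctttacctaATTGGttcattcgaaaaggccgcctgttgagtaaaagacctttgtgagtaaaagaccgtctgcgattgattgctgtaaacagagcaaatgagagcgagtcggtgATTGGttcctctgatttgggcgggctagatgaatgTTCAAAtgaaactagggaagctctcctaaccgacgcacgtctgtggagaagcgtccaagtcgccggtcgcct
Mki67: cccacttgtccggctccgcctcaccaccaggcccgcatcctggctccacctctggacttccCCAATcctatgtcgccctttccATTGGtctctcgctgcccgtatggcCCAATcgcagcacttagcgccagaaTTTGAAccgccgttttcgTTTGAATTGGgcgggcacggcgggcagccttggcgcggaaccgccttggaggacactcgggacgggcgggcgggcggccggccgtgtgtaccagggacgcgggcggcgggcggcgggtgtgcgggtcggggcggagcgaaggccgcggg
Cdk1: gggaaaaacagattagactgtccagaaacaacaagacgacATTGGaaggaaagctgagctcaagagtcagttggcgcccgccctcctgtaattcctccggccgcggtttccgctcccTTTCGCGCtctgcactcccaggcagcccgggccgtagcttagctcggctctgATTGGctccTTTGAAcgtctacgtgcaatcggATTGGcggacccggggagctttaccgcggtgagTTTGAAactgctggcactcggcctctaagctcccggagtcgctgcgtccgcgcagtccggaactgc

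Of the 48 tested S-phase genes 38 had a promoter in the table, and of the 47 mitosis genes 39. CCAAT was found in 23 of the S-phase promoters (60.5%) and 28 of the mitosis promoters (71.8%), beside 37.5% of all 33469 promoters in the table. Either E2F motif was found in 14 of the S-phase promoters (36.8%), in 1 of the mitosis promoters (Cdk1) and in 0.792% of all promoters. TTTGAA was found in 29 of the mitosis promoters (74.4%), in 3 of the S-phase promoters and in 18.3% of all promoters. CCAAT and TTTGAA stood together in 21 of the mitosis promoters (53.8%) and in 7.41% of all promoters. A match describes the letters in this window and is not a measured binding site.

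The genes that gate entry into the cycle moved in both directions. Of 15 tested members of the list of G1 cyclins and cyclin-dependent kinase inhibitors, 7 were higher and 8 lower, with a median of -0.26 that was -0.021 without a filter on low counts. Rb1, the retinoblastoma gene that holds E2F factors back, had 86.6, 82.5 and 87.4 CPM alone and 142, 129.8 and 139.9 CPM in co-culture, and rose by 0.68 ± 0.048 (adjusted p 1.4e-10). Its relative Rbl1, which binds repressive E2F factors, fell from 58.2 ± 2.79 to 33.2 ± 1.23 CPM (-0.81 ± 0.060). E2f8 and E2f7, the atypical E2F repressors that are themselves made in S phase, changed by -1.41 and -1.28 on the log2 scale. Cdk4, the G1 kinase, had 128, 126 and 127 CPM alone and 89.1, 81.6 and 87.4 CPM in co-culture (-0.56 ± 0.043). Cdkn1a, which encodes the inhibitor p21, had 211, 208 and 215 CPM alone and 264, 256 and 268 CPM in co-culture, without overlap, and rose by 0.31 ± 0.045. Among 23 tested p53 targets 11 were higher and 3 lower, with a median of 0.17. Of these, Tp53inp1, an autophagy and stress gene, rose by 0.90 ± 0.11, and the cell death gene Pmaip1 (Noxa) and the kinase gene Plk3 rose by 0.86 ± 0.064 and 0.74 ± 0.048.

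Growth genes fell beside the cell cycle. In the list of the MYC network and ribosome biogenesis, 34 of 39 tested members were lower and 4 higher, with a median of -0.61. Odc1, the first enzyme of polyamine synthesis, had 296, 289 and 289 CPM alone and 158, 162 and 164 CPM in co-culture. The groups did not overlap, and the change was -0.85 ± 0.038 (adjusted p 9.0e-14). The nucleolar genes Utp20 (-1.15 ± 0.065), Nop56 (-0.93 ± 0.054) and Mybbp1a (-0.79 ± 0.042) and the growth regulator gene Pa2g4 (-0.89 ± 0.037) fell. Myc itself changed little, with 74.7, 77.6 and 80.4 CPM alone and 73.1, 65.0 and 68.2 CPM in co-culture (-0.17 ± 0.062, adjusted p 0.020). That small fall no longer passed with upper-quartile factors (-0.12), nor without BxTAM replicate 2 (-0.13), BxTAM replicate 3 (-0.17), cells alone replicate 2 (-0.16) or cells alone replicate 3 (-0.14). The 4 members that rose are the repressors of the network, Mxd4, Mnt, Mxd1 and Mxi1, named after their values were seen. Mxd4 had 6.14, 12.5 and 11.8 CPM alone and 35.2, 33.9 and 35.4 CPM in co-culture (1.77 ± 0.22), where 1 library of cells alone stood below the other two. Among cytosolic ribosomal protein genes 9 of 25 were higher and 0 lower, with a median of 0.047 that was 0.0017 without cells alone replicate 1, and Rpl4 rose by 0.22 ± 0.041. These genes share reads with their pseudogenes and are uncertain for that reason.

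Proteasome genes fell by small amounts and nearly all together. Of 27 tested subunits of the proteasome, the protease that degrades ubiquitin-tagged proteins, 25 were lower and 0 higher, with a median of -0.42 and none at 2-fold. Psmc5, an ATPase of its regulatory cap, had 97.4, 94.5 and 94.2 CPM alone and 51.8, 47.1 and 53.4 CPM in co-culture, and changed by -0.91 ± 0.058. Psma7, of the catalytic core, changed by -0.64 ± 0.041. The immunoproteasome subunit Psmb10, which belongs to the antigen presentation list and was named after its values were seen, went from 7.22, 8.57 and 6.17 CPM to 1.82, 2.24 and 1.10 CPM, a change of -2.09 ± 0.19. Cytosolic and mitochondrial chaperones were lower in 11 of 19 tested members and higher in 5, with a median of -0.22. Hspd1, the mitochondrial chaperonin, had 592, 571 and 609 CPM alone and 299, 311 and 299.9 CPM in co-culture (-0.96 ± 0.045, adjusted p 2.2e-13), without overlap.

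Amino acid genes of the ATF4 programme, which cells switch on when amino acids are short, were mostly lower. Of 34 tested members 25 fell and 6 rose, with a median of -0.47. Slc7a11, the cystine importer that feeds glutathione synthesis (chr2:139453774-139528162, Rnor_6.0), had 27.5, 25.6 and 26.6 CPM alone and 3.97, 4.66 and 4.78 CPM in co-culture. It was 5.94-fold lower (-2.57 ± 0.10, adjusted p 4.7e-15). Psat1, of serine synthesis, fell from 277 ± 10.6 to 118 ± 0.618 CPM. Shmt2, the mitochondrial serine hydroxymethyltransferase, changed by -1.01 ± 0.047, and the large neutral amino acid transporter gene Slc7a5 by -1.08 ± 0.053. Chac1, which breaks down glutathione, had 145, 147 and 149.6 CPM alone and 77.4, 77.4 and 70.1 CPM in co-culture. The 2 largest rises of the list, named after their values were seen, are stress genes: Gdf15, a secreted stress cytokine, had 5.97, 6.53 and 4.90 CPM alone and 19.4, 15.4 and 18.6 CPM in co-culture (1.62 ± 0.14), and Ddit3, which encodes CHOP, rose by 0.90 ± 0.069.

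Inflammatory genes rose. Of 39 tested members of the NF-kappaB list 26 were higher and 3 lower, 5 of the former by 2-fold or more, with a median of 0.32. Il33, an alarmin of the interleukin-1 family kept in the nucleus and released on injury (chr1:248132090-248147029, Rnor_6.0), had 218, 213 and 228 CPM alone and 338, 359 and 325 CPM in co-culture. Every co-culture library was above every library of cells alone, and the gene rose 1.55-fold (0.63 ± 0.045, adjusted p 1.7e-10). Csf3, granulocyte colony-stimulating factor, had 82.0, 83.9 and 86.8 CPM alone and 132, 126 and 119.6 CPM in co-culture and rose by 0.58 ± 0.064. Ptgs2, the inducible cyclooxygenase of prostaglandin synthesis, had 11.6, 10.6 and 12.5 CPM alone and 26.1, 24.0 and 23.8 CPM in co-culture, a 2.13-fold rise (adjusted p 1.5e-09). The leukaemia inhibitory factor gene Lif, which acts on neurons and macrophages, rose by 0.57 ± 0.085, the adhesion gene Icam1 by 0.45 ± 0.043, and Csf1, macrophage colony-stimulating factor, by 0.12 ± 0.036.

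Further members of the list encode regulators of the pathway and cytokines. Zc3h12a, an RNase that degrades cytokine messages, had 39.1, 34.8 and 34.7 CPM alone and 63.0, 60.2 and 57.9 CPM in co-culture (0.74 ± 0.059), and Tnip1, a ubiquitin-binding inhibitor, rose by 0.48 ± 0.041. Nfkbia, the inhibitor IkappaB-alpha and a direct target of the pathway, was named after its values were seen: it had 54.1, 50.9 and 58.1 CPM alone and 70.2, 76.0 and 65.0 CPM in co-culture (0.37 ± 0.060). The largest rise of the list was that of Csf2, granulocyte-macrophage colony-stimulating factor, from 0.746 ± 0.121 to 2.83 ± 0.492 CPM, and Il6 was at 0.0568, 0.357 and 0.426 CPM alone and 0.751, 0.517 and 0.989 CPM in co-culture (1.38 ± 0.45, adjusted p 0.011), which rests on 16 and 41 counts. Its rise no longer passed without cells alone replicate 1 (0.95) or BxTAM replicate 3 (1.14). The 3 members that fell are chemokines: Cxcl6 (-0.53 ± 0.14), Ccl2 (-0.42 ± 0.075) and Cxcl1 (-0.37 ± 0.052). These genes were named after their values were seen, and members of the Cxcl family can share reads. Cxcl12, a chemokine outside the list, had 234, 236 and 234 CPM alone and 216, 226 and 220.1 CPM in co-culture, and its change of -0.087 ± 0.038 did not pass the test (adjusted p 0.052) although the groups did not overlap. It passed in a fit of the 6 libraries alone (-0.083).

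The promoter of Nfkbia (chr6:78597023-78597322 of GRCr8, minus strand, RefSeq) is shown because the gene is a known target of the factor and rose with its list. NF-kappaB binding sequences were written as GGGANTTTC and GGAANTTCC, where N is any base, and sought on both strands. Capitals mark matches, and the later run holds overlapping matches of both motifs. Of the 39 tested members of the list 29 had a promoter in the table. Either motif was found in 9 of them (31%) and in 1.95% of all promoters.
Nfkbia: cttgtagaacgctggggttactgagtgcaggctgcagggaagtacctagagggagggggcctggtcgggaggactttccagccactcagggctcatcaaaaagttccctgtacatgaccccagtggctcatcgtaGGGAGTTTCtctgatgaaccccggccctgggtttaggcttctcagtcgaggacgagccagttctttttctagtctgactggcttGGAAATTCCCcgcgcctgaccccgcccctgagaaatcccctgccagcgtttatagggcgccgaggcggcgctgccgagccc

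Antigen presentation genes rose more often than they fell. In that list 12 of 23 tested members were higher and 6 lower, with a median of 0.55. RT1-Bb, a class II chain of the rat, had 0.966, 1.12 and 0.852 CPM alone and 4.34, 4.48 and 4.06 CPM in co-culture, and rose by 2.12 ± 0.17 (adjusted p 1.2e-09). The class II chains RT1-Ba (1.11 ± 0.085) and RT1-Db1 (0.93 ± 0.074) and Tapbp, which loads class I molecules (0.81 ± 0.059), rose too. Erap1, which trims peptides for class I, changed by -0.56 ± 0.049. The groups did not overlap in any of these 5 genes, which were chosen by smallest p in this comparison. RT1 genes are near copies of each other, and the counting could split reads between them. Interferon response genes went both ways, 15 of 41 higher and 11 lower, with a median of 0.039 that was -0.075 without BxTAM replicate 2. Among them Samd9l, an antiviral gene, fell from 29.6 ± 1.16 to 10.3 ± 0.495 CPM (-1.52 ± 0.074), as did Gbp2, a guanylate-binding protein (-0.81 ± 0.045), and the chemokine gene Cxcl10 (-0.76 ± 0.058). Isg20, an exonuclease, rose by 1.22 ± 0.12 and Ifih1, a sensor of double-stranded RNA, by 0.56 ± 0.052.

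Matrix genes rose as a group. In the list of collagens and extracellular matrix, 31 of 42 tested members were higher and 3 lower, 7 of the former by 2-fold or more, with a median of 0.59. Col1a1, the alpha-1 chain of type I collagen (chr10:82745801-82762789, Rnor_6.0), had 17.6, 16.7 and 16.4 CPM alone and 53.4, 51.3 and 47.2 CPM in co-culture. The groups were far apart, and the gene rose 3.00-fold (1.58 ± 0.070, adjusted p 8.1e-14). Its partner chain Col1a2 is listed at 0 in all 12 libraries. Lamb3, a chain of the laminin that anchors epithelia, had 11.0, 11.3 and 12.7 CPM alone and 49.5, 43.6 and 41.7 CPM in co-culture, a rise of 1.95 ± 0.075. Lamb1, a laminin chain of the nerve's basal lamina, rose by 0.75 ± 0.037, Col18a1, a basement membrane collagen, by 1.10 ± 0.042, and Col11a1, a fibrillar collagen, by 0.92 ± 0.042. Sulf2, which edits heparan sulfate and was named after its values were seen, had 0 counts in cells alone and 44 in BxTAM co-culture. The list's median of 0.59 is the same with this gene set to its bound against 3 counts.

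Proteases that remodel matrix rose in most members. Of 31 tested members of that list 24 were higher and 2 lower, with a median of 0.47. Htra1, a secreted serine protease, had 2866, 2896 and 2819 CPM alone and 5077, 5147 and 4964 CPM in co-culture (0.82 ± 0.037). Adamts4, an aggrecanase that cleaves proteoglycans, had 29.2, 30.0 and 26.3 CPM alone and 79.6, 85.3 and 82.6 CPM in co-culture, a 2.89-fold rise (adjusted p 1.9e-15). Plau, urokinase, rose by 1.06 ± 0.048. In the TGF-beta list 17 of 27 tested members were higher and 5 lower, with a median of 0.31. Fstl3, a secreted inhibitor of activin, rose by 1.38 ± 0.052, Ltbp2, a matrix protein of the latent TGF-beta binding family, by 1.21 ± 0.086, Skil, a feedback repressor of SMAD factors, by 0.93 ± 0.067, and Thbs1, thrombospondin-1, which activates latent TGF-beta, by 0.75 ± 0.046. Pmepa1, a feedback gene named after its values were seen, had 0 counts alone and 18 in co-culture, and the list's median is unchanged with it at its bound.

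Cholesterol genes rose by moderate amounts. Of 29 tested members of synthesis and uptake 23 were higher and 1 lower, with a median of 0.39. Insig1, which is itself induced by SREBP factors, had 228, 223 and 249 CPM alone and 535, 519.7 and 540.0 CPM in co-culture. It rose 2.28-fold without overlap (1.19 ± 0.044, adjusted p 5.4e-15). Msmo1, an oxidase of the sterol C4 methyl groups, had 454, 429 and 466 CPM alone and 916, 904 and 961 CPM in co-culture (1.04 ± 0.044). Sc5d and Cyp51, late enzymes of the pathway, rose by 0.84 ± 0.050 and 0.75 ± 0.046. The member that fell, Scap, escorts SREBP factors and was named after its values were seen (-0.34 ± 0.053). The promoter of Msmo1 (chr16:29746863-29747162 of GRCr8, plus strand, RefSeq) is shown for its 3 CCAAT boxes, in capitals. CCAAT stood in 17 of the 22 cholesterol promoters in the table (77.3%), and the sterol element in its single spelling TCACCCCAC in 0 of them and in 0.484% of all promoters.
Msmo1: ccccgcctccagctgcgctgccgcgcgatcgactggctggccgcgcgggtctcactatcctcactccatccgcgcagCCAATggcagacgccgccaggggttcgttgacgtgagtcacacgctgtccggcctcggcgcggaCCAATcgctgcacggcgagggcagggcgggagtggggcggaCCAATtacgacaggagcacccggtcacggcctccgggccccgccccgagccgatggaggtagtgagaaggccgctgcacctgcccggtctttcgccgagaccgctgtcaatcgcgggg

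Fatty acid genes and lysosomal genes rose beside them. Of 18 tested members of fatty acid synthesis and LXR targets 12 were higher and 0 lower, with a median of 0.23. Scd2, a stearoyl-CoA desaturase, had 3584, 3462 and 3608 CPM alone and 6657, 6646 and 6489 CPM in co-culture (0.89 ± 0.037, adjusted p 3.4e-14). Fasn, fatty acid synthase, rose by 0.74 ± 0.047, Acss2, which makes cytosolic acetyl-CoA, by 0.79 ± 0.037, and malic enzyme, Me1, by 0.61 ± 0.043. In the lysosome list 23 of 30 were higher and 1 lower, with a median of 0.26. Ctsd, the aspartic protease cathepsin D (chr1:215541542-215553451, Rnor_6.0), had 1325, 1335 and 1296 CPM alone and 3421, 3253 and 3240.5 CPM in co-culture, 2.51-fold higher without overlap (1.33 ± 0.042, adjusted p 4.9e-16). Ctsb, cathepsin B, rose by 0.69 ± 0.035, Grn, progranulin, by 0.59 ± 0.040, and Hexa, a subunit of hexosaminidase, by 0.63 ± 0.038. Ftl1, the light chain of ferritin that stores iron, had 351, 348 and 348 CPM alone and 853, 781 and 763 CPM in co-culture (1.19 ± 0.052).

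Folding genes of the endoplasmic reticulum rose in part. Of 28 tested members 17 were higher and 6 lower, with a median of 0.22. Hspa5, the chaperone BiP, had 1107, 1075 and 1133 CPM alone and 1932, 1855 and 2033 CPM in co-culture and rose by 0.81 ± 0.052 (adjusted p 3.3e-11). P4hb, protein disulfide isomerase and a subunit of collagen prolyl hydroxylase, rose by 0.80 ± 0.040, Hyou1, a chaperone, by 0.61 ± 0.039, and Xbp1, a transcription factor of the unfolded protein response, by 0.57 ± 0.045. The hypoxia and glycolysis list was split, 18 of 38 higher and 12 lower, with a median of 0.073. The members with the smallest p all rose: Aldoc and Eno2, isoforms of glycolytic enzymes known from neural cells, by 1.18 ± 0.042 and 0.91 ± 0.042, the collagen hydroxylases P4ha1 and P4ha2 by 0.91 ± 0.046 and 0.95 ± 0.044, and the carbonic anhydrase gene Car9 from 415 ± 5.75 to 764 ± 28.7 CPM.

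Schwann cell genes gave a mixed picture. Among 13 tested lineage genes 6 were higher and 1 lower, with a median of 0.32 that was 0.14 with limma on log2(FPKM + 1). Dhh, desert hedgehog, the signal from Schwann cells to the nerve sheath, had 7.95, 8.11 and 7.13 CPM alone and 16.6, 16.1 and 15.9 CPM in co-culture (1.07 ± 0.080, adjusted p 4.1e-10). Ncam1, an adhesion molecule of immature and repair Schwann cells, had 114, 101 and 107 CPM alone and 142, 134 and 138 CPM in co-culture (0.36 ± 0.056), and Nrg1, the growth factor of the lineage, rose by 0.77 ± 0.13. Gfap, a glial filament, was low and fell, from 2.90, 2.65 and 2.98 CPM to 0.965, 1.61 and 1.43 CPM (-1.09 ± 0.21, adjusted p 1.7e-04). Ngfr, the low-affinity neurotrophin receptor, had 0.284, 0.306 and 0.692 CPM alone and 0.751, 1.03 and 0.659 CPM in co-culture, groups that overlap, and did not pass the test (0.91 ± 0.47, adjusted p 0.10). It passed in a fit of the 6 libraries alone (0.91) and without cells alone replicate 3 (1.45). Myelin genes were split: 3 of 12 were higher and 4 lower, with a median of -0.11. Prx, periaxin of the myelin sheath, changed by -0.52 ± 0.13, whereas Egr2, the transcription factor of myelination, rose by 0.49 ± 0.11 and Cadm4, an adhesion molecule facing the axon, by 0.89 ± 0.10. Egr1, an immediate early factor, went from 110.0, 105 and 108 CPM to 92.8, 86.8 and 90.9 CPM and changed by -0.25 ± 0.042.

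Genes of the repair state rose in most members. Of 23 tested 14 were higher and 3 lower, with a median of 0.31. Jun, the factor that directs repair cells, had 88.0, 91.3 and 89.9 CPM alone and 116, 113 and 109.8 CPM in co-culture (0.33 ± 0.044, adjusted p 1.7e-06), and Runx2, which rises in injured nerve, changed by 0.40 ± 0.045. The largest fall of the list was that of Clcf1, from 22.5 ± 1.59 to 13.7 ± 1.96 CPM (-0.72 ± 0.092, adjusted p 9.0e-07). Among neurotrophic genes 7 of 14 were higher and 1 lower, with a median of 0.24. Bdnf, brain-derived neurotrophic factor, had 26.8, 26.3 and 25.4 CPM alone and 40.7, 41.5 and 42.8 CPM in co-culture, without overlap, and rose by 0.67 ± 0.069 (adjusted p 4.6e-08). Sort1, a receptor of pro-neurotrophins, rose by 0.70 ± 0.047, and Osmr, the oncostatin M receptor, changed by -0.63 ± 0.058. Gdnf, glial cell line-derived neurotrophic factor, had 11.6, 8.46 and 11.7 CPM alone and 11.4, 10.6 and 9.56 CPM in co-culture and did not pass the test (adjusted p 0.98).

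Guidance cues rose more often than they fell. Of 34 tested ligands and receptors 21 were higher and 2 lower, with a median of 0.37 that was 0.19 with limma on log2(FPKM + 1). Sema7a, a semaphorin that promotes axon growth, had 8.18, 8.26 and 8.09 CPM alone and 19.0, 15.2 and 17.0 CPM in co-culture (1.06 ± 0.094). Sema3b and the netrin receptor gene Unc5b rose by 0.69 ± 0.065 and 0.67 ± 0.046. Sema3c, a secreted semaphorin, fell from 845, 829 and 863 CPM to 551, 579 and 560.2 CPM (-0.59 ± 0.044, adjusted p 4.0e-10). In the list of FGF receptors and the PI3K axis 16 of 26 were higher and 4 lower, with a median of 0.30 that was 0.18 with a mean of at least 5 CPM. Fgfr1, a receptor of fibroblast growth factors, was low, at 1.14, 1.38 and 1.01 CPM alone and 2.84, 2.36 and 2.36 CPM in co-culture, and rose by 1.10 ± 0.19 (adjusted p 4.4e-05). Fgf2 had 3.18, 3.42 and 2.87 CPM alone and 3.43, 4.20 and 3.84 CPM in co-culture and did not pass the test (adjusted p 0.13). Mtor, the kinase of growth control, had 136, 135 and 129 CPM alone and 67.9, 62.4 and 67.1 CPM in co-culture (-1.02 ± 0.060), whereas the PI3K regulatory gene Pik3r1 rose by 0.63 ± 0.068.

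Markers of other cell types moved with the co-culture. Of 30 macrophage and monocyte genes 7 had enough counts to be tested and 5 of these were higher, and the summed level of the list was 28.5 to 31.6 CPM in cells alone and 60.1 to 62.2 CPM in BxTAM co-culture. Defining markers were listed at 0: Adgre1, Tyrobp, Mrc1, C1qa and C1qb are among 11 genes of the list at 0 in all 6 libraries, and 24 were under 1 CPM in both groups. Most of the sum in CPM came from Itgax, an integrin of dendritic cells and macrophages, with 18.3, 16.9 and 16.3 CPM alone and 35.9, 39.1 and 37.7 CPM in co-culture (1.13 ± 0.068). Csf1r, the receptor of macrophage colony-stimulating factor, had 3.18, 3.26 and 3.57 CPM alone and 8.15, 7.01 and 7.91 CPM in co-culture (1.20 ± 0.13), and Lcp1 and Cd14 rose by 1.35 ± 0.17 and 0.66 ± 0.14. In bulk RNA, fewer cells of a type and less RNA per cell cannot be told apart, nor can a small share of macrophage RNA and expression by the Schwann cells. The part of these markers in the changes above was not tested.

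The other marker lists shifted less. Fibroblast markers summed to 679 to 687 CPM alone and 824 to 845 CPM in co-culture, with 4 of 5 tested genes higher, and this list shares Col1a1 with the matrix list, while Dcn and Lum are listed at 0. Endothelial markers summed to 64.2 to 67.7 CPM alone and 77.4 to 78.8 CPM in co-culture, neuronal markers to 161 to 172 CPM and 183 to 198 CPM, and lymphocyte markers to 0.909 to 1.17 CPM and 1.38 to 1.77 CPM. Members went both ways: of 5 tested endothelial genes 2 were higher and 1 lower, Kdr (-1.55 ± 0.32). Of 3 tested neuronal genes 1 was higher, Map2 (0.32 ± 0.050), and 1 lower, Nefh (-0.12 ± 0.050). Epithelial markers summed to 40.2 to 41.2 CPM alone and 34.2 to 37.8 CPM in co-culture, with Epcam and Krt19 at 0. Of the 7 tested epithelial genes 1 was higher and 1 lower: Spint1, an inhibitor of membrane proteases, had 3 counts alone and 29 in co-culture, and Cldn4, a tight junction gene, fell (-0.65 ± 0.079). Immediate early genes summed to 855 to 878 CPM alone and 967 to 1040 CPM in co-culture, with 13 of 22 tested higher and 4 lower. Within the list Jund, an AP-1 subunit, rose by 0.92 ± 0.064 and Nr4a1, a nuclear receptor induced within minutes, by 0.90 ± 0.14.

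Genes of the mitochondrial chromosome did not move together. Of 11 tested 1 was higher and 8 were lower, with a median of -0.45. Mt-co1, a subunit of cytochrome oxidase, had 20177, 19411 and 20189.7 CPM alone and 27882, 27431 and 27922 CPM in co-culture (0.48 ± 0.047). Mt-co2 (-0.56 ± 0.056), Mt-nd1 (-0.64 ± 0.045) and Mt-nd4 (-0.45 ± 0.052) fell. Mt-nd6 changed by -1.59 ± 0.077, but it lies on the strand opposite to its neighbours. How the counting treated strand is not stated, so this value is uncertain, as are those of other genes that overlap on opposite strands.

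**Figure D3:**
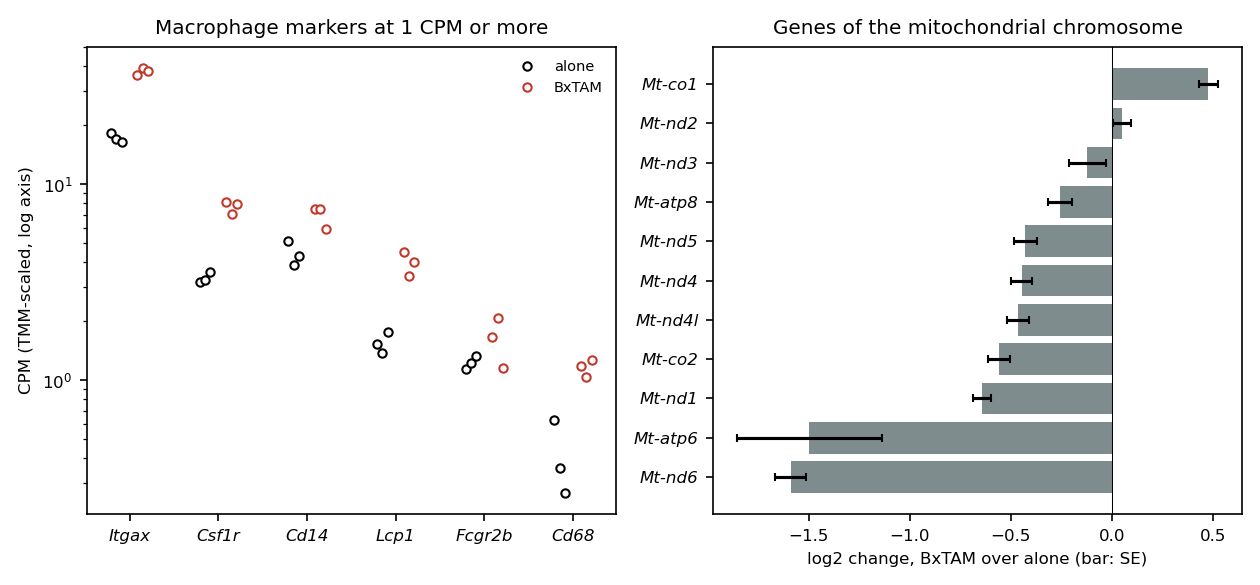
Left, level of the macrophage markers with a mean of at least 1 CPM in either group (vertical axis, CPM, log scale), with each circle a library of cells alone (black) or BxTAM co-culture (red); right, log2 change of the 11 tested genes of the mitochondrial chromosome with their standard error. Itgax makes up most of the summed CPM in both groups, and Mt-co1 rose while most other mitochondrial genes fell.

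Among single genes with at least 5 CPM in the higher group, the largest falls include genes of the cell cycle and of thiol and folate metabolism. Ns5atp9, the PCNA-associated factor of replication forks, had 27.1, 20.9 and 25.7 CPM alone and 3.65, 2.76 and 3.02 CPM in co-culture, the largest fall at 7.77-fold (adjusted p 3.9e-14). The repair genes Fanci (-2.33 ± 0.079) and Eme1 (-2.42 ± 0.14), the centromere gene Cenpu (-2.53 ± 0.10) and the mitotic kinase gene Pbk (-2.31 ± 0.078) followed. Shmt1, the cytosolic serine hydroxymethyltransferase of folate metabolism, fell from 29.0, 28.0 and 29.4 CPM to 5.95, 5.63 and 5.99 CPM (-2.30 ± 0.077). Iqgap3, Tk1, Mcm10, Rrm2 and Slc7a11, described above, are also among the 12 largest falls.

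The 12 largest rises came from several functions. Cpeb1, a regulator of poly(A) tails, had 0.625, 0.714 and 0.692 CPM alone and 4.61, 4.77 and 6.65 CPM in co-culture, a 7.81-fold rise (2.97 ± 0.20). Nt5e, the ectoenzyme that makes adenosine, had 3.07, 3.26 and 3.09 CPM alone and 17.4, 15.4 and 13.9 CPM in co-culture (2.31 ± 0.13, adjusted p 2.2e-12). Ptprz1, a receptor phosphatase of glial cells, had 8.12, 8.62 and 10.4 CPM alone and 39.7, 42.2 and 36.4 CPM in co-culture (2.12 ± 0.086). Collagen gene Col20a1 (2.31 ± 0.078), the sulfotransferase gene Chst11 of chondroitin sulfate (2.16 ± 0.11) and Lamb3 are matrix genes. Atp1b2, a subunit of the sodium pump known as an adhesion molecule on glia (2.31 ± 0.16), Mapt, which encodes the microtubule protein tau (1.99 ± 0.11), and Ndrg4 (1.99 ± 0.10) are known from neural tissue. Myo7a, an unconventional myosin, rose by 2.06 ± 0.082, and Lrrc75b and Csdc2 by 2.38 ± 0.13 and 2.03 ± 0.12.

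The other co-cultures give the same measurements with other macrophages. BxTAM, MDM and MiaTAM co-culture share the same 3 libraries of cells alone, so their changes are given side by side, and the difference was tested directly between co-cultures. Against MDM co-culture, 2153 genes were higher in BxTAM co-culture (17.4%) and 2138 lower (17.3%). Against MiaTAM co-culture, 1641 were higher (13.3%) and 1356 lower (11%).

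Mitosis genes were lower in BxTAM than in MDM co-culture, and replication genes differed in both directions. The median of the mitosis list was -1.66 in BxTAM, -0.79 in MDM and -1.72 in MiaTAM co-culture, and 47 of 47 members were lower in BxTAM than in MDM co-culture. Mki67 had 591, 574 and 542 CPM in MDM co-culture, above every BxTAM library and below every library of cells alone, and differed by -0.81 ± 0.049 between BxTAM and MDM co-culture (adjusted p 1.0e-10). The median of the S-phase list was -1.24, -1.23 and -1.10, with 16 members higher and 12 lower in BxTAM than in MDM co-culture. Mcm3, at 29.8, 27.9 and 29.1 CPM in MDM co-culture, was higher in BxTAM co-culture by 0.50 ± 0.052. Against MiaTAM co-culture 7 mitosis genes were higher and 7 lower. Genes of the MYC network and ribosome biogenesis were higher than in MDM co-culture in 22 members and lower in 3, with medians over cells alone of -0.61 in BxTAM and -0.72 in MDM co-culture, and Slc7a11, at 2.14 ± 0.342 CPM there, was higher by 1.05 ± 0.14.

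Inflammatory genes were higher in BxTAM than in MDM co-culture. The median of the NF-kappaB list was 0.32 in BxTAM, -0.070 in MDM and 0.34 in MiaTAM co-culture, and 29 of 39 members were higher and 1 lower in BxTAM than in MDM co-culture. Ptgs2, at 12.6, 10.0 and 10.9 CPM in MDM co-culture, changed there by -0.050 from cells alone, and BxTAM co-culture differed from it by 1.14 ± 0.090 (adjusted p 4.2e-09). Nt5e had 4.55, 6.07 and 6.25 CPM in MDM and 14.5, 14.8 and 13.3 CPM in MiaTAM co-culture, and differed from MDM by 1.46 ± 0.11. Cathepsin D was at 1919, 1819.5 and 2033 CPM in MDM co-culture (0.78 ± 0.042). In the opposite direction, 20 of 28 folding genes and 29 of 38 hypoxia and glycolysis genes were lower in BxTAM than in MDM co-culture, with 1 and 2 higher. Hspa5 had 4413, 4583 and 4065 CPM in MDM co-culture, and BxTAM differed from it by -1.17 ± 0.052 (adjusted p 1.2e-12).

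**Figure D4:**
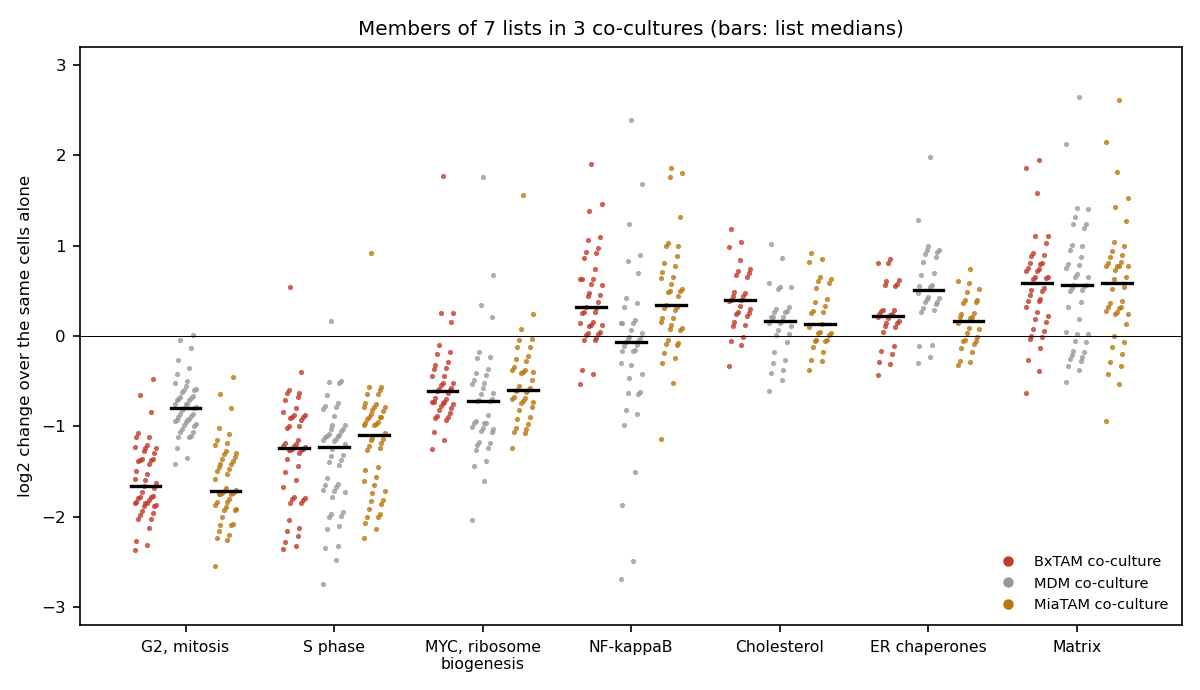
Log2 change over the shared cells alone (vertical axis) of the tested members of 7 lists in BxTAM (red), MDM (grey) and MiaTAM (gold) co-culture, with each point a gene and bars at the list medians. The mitosis genes are lower in BxTAM (median -1.66) and MiaTAM co-culture (-1.72) than in MDM co-culture (-0.79), and the NF-kappaB median is above 0 in both TAM co-cultures; Sulf2 lies outside the range drawn.

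Cholesterol genes were higher in BxTAM than in both other co-cultures in 17 and 14 members. Their median was 0.39 in BxTAM, 0.17 in MDM and 0.14 in MiaTAM co-culture, with 17 of 29 higher and 2 lower than in MDM, and 14 higher and 2 lower than in MiaTAM co-culture. Insig1 had 477, 483 and 455 CPM in MDM and 380.0, 352 and 368 CPM in MiaTAM co-culture, all below the BxTAM libraries, and differed by 0.17 ± 0.043 and 0.53 ± 0.044. Against MiaTAM co-culture, interferon genes were higher in 15 of 41 members and lower in 2, and nuclear-encoded genes of oxidative phosphorylation were higher in 0 and lower in 15 of 28. Col1a1, at 74.9 ± 6.57 CPM in MiaTAM co-culture, was lower in BxTAM co-culture, with a difference of -0.56 ± 0.060 (adjusted p 5.3e-06). Lamb3, Chst11 and Lrrc75b were likewise lower in BxTAM than in either other co-culture, with differences of -0.70 ± 0.061, -0.73 ± 0.075 and -0.62 ± 0.089 against MDM and -0.66 ± 0.062, -0.71 ± 0.076 and -0.58 ± 0.089 against MiaTAM.

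**Figure D5:**
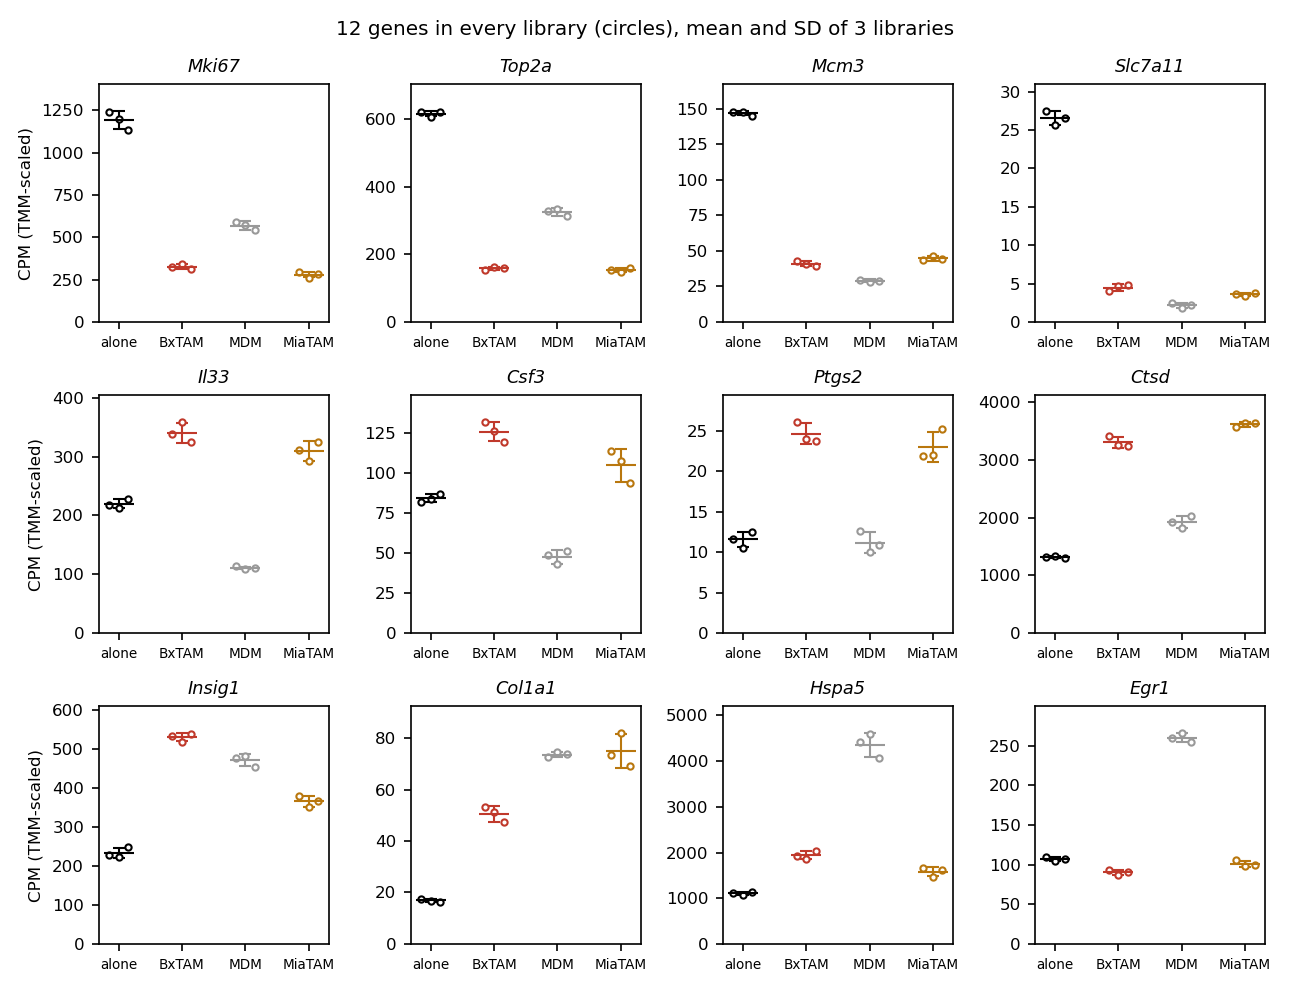
Level in CPM of 12 genes described in the text in each of the 12 libraries (circles), with the mean and SD of the 3 libraries of each group; vertical axes start at 0. Mki67 and Top2a are lowest in both TAM co-cultures, Mcm3 and Slc7a11 are low in every co-culture, Il33 and Csf3 are lowest in MDM co-culture, and Hspa5 and Egr1 are highest there.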

How the data were processed

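Messenger RNA libraries were made with a stranded kit, per the labels' protocols. The submitters' processing notes name the build Rnor_6.0 with StringTie 1.3.0, HISAT2 and CASAVA. The sources used here give no counting tool, annotation release or strand setting. Per the file headers, the deposited values are raw counts of each gene and FPKM values that the authors scaled by gene length and library total. Libraries of cells alone held 17491359, 19351476 and 18682148 counts, and those of BxTAM co-culture 18677039, 17400979 and 18150439. Within each of these groups no library was a duplicate of another, and other pairs were not checked.

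Counts of all 12 libraries were fitted in edgeR 4.0.16 (R 4.3.3) by the quasi-likelihood test with 1 mean per group, after filterByExpr by group and TMM scaling (factors 0.980 to 1.01), and p was adjusted by Benjamini-Hochberg over 12360 genes and called under 0.05. DESeq2 1.42.0 and limma 3.58.1 served as alternatives, the latter on log2(FPKM + 1). Of 1131 list symbols 25 were not found. The members and lists were chosen with earlier results of these data known. Named genes are the 12 largest called rises and falls with 5 CPM in the higher group, over 3 counts in the lower group and no overlap, up to 5 members of each list by smallest p, a fixed set (Il33, Gfap, Myc, Fgf2, Fgfr1, Sox10, S100b, Ngfr, Cxcl12, Csf1, Csf3, Lif, Bdnf, Gdnf, Hspa5, Mcm3, Mki67, Col1a1, Egr1 and Slc7a11, with others not reported here) and markers at 1 CPM or more. The text describes most of them and counts the rest with their lists. Genes named outside this rule were chosen after their values were seen. Floors and counting intervals cover counting error only. Promoter sequences are RefSeq's.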

Additional observations from a re-analysis of the deposited data

Results flagged for a closer look

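Of all tested genes, 170 changed from cells alone in opposite directions in BxTAM and MDM co-culture, with a called difference between both, and 54 did so in BxTAM and MiaTAM co-culture. Among the genes named by the fixed rule, 7 and 1 did. Both comparisons share the cells alone, and the difference given is the direct contrast between co-cultures.

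Il33 rose in BxTAM co-culture (log2 0.63) and fell in MDM co-culture (-0.99), a difference of 1.62 (adjusted p 8.6e-16). Csf3 rose in the former (0.58) and fell in the latter (-0.82), a difference of 1.40 (adjusted p 3.5e-12), and Csf1, with 0.12 and -0.64, differed by 0.77 (adjusted p 3.8e-12). Dusp7, a phosphatase that switches ERK off, had 0.39 in BxTAM and -0.35 in MDM co-culture, a difference of 0.74 (adjusted p 9.0e-12). Flt1, a receptor of vascular endothelial growth factors, had 0.26 and -0.24, a difference of 0.50 (adjusted p 3.0e-07). In the opposite direction, Egr1 had -0.25 in BxTAM and 1.27 in MDM co-culture, a difference of -1.53 (adjusted p 3.2e-16), and Ctgf, a matricellular target of YAP, had -0.83 and 0.55, a difference of -1.38 (adjusted p 1.2e-09). Cldn4, a tight junction gene, fell in BxTAM co-culture (-0.65) and rose in MiaTAM co-culture (0.45), a difference of -1.10 (adjusted p 1.7e-08).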

How the results depend on the processing

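Of the genes called in the comparison, 0 were called with the opposite sign under any setting. The 3710 higher and 3814 lower genes became 4348 and 3213 with upper-quartile factors, which moved the median change to 0.0568 and the higher share of calls from 49.3% to 57.5%. They were 3778 and 3748 with DESeq2 size factors, 3522 and 3503 with DESeq2's Wald test (2 adjusted p-values NA), 3479 and 3883 with limma on log2(FPKM + 1), 3739 and 3805 without a filter, and 3756 and 3851 with the 6 libraries alone. Leaving out each library in turn gave 3405 to 3591 higher and 3427 to 3568 lower genes, of which 484 to 520 and 442 to 472 changed by 2-fold or more. The counts at 2-fold or more, 485 and 449, fell to 82 and 298 with limma on log2(FPKM + 1), where the pseudocount shrinks low genes, and the higher ones to 150 with a mean of at least 5 CPM, which tests 9983 genes. With the replicate number as a replicate block the calls were 3698 and 3798. Deviations of same-numbered libraries from their group means correlated weakly (r 0.029, -0.067 and -0.084). The largest r, 0.123, joined cells alone replicate 3 and BxTAM replicate 2. With 3 libraries a group, such values cannot show whether the numbers mark a shared culture or batch. The median of the antioxidant list (-0.011) turned to 0.044 with upper-quartile factors, 0.0149 without BxTAM replicate 3, 0.0120 without cells alone replicate 2 and 0.0228 without cells alone replicate 3 (range of the left-out libraries -0.0157 to 0.0228). That of the interferon list (0.039) turned to -0.0750 without BxTAM replicate 2 (range -0.0750 to 0.0750), and that of the myelin list (-0.11) to 0.0042 with a mean of at least 5 CPM. List medians moved by over 1.5 times without a change of sign for G1 genes (to -0.021 without a filter), Schwann cell lineage (0.14) and axon guidance (0.19) with limma, the FGF axis (0.18) and hypoxia and glycolysis (0.12) with a mean of at least 5 CPM, and, with upper-quartile factors, hypoxia and glycolysis (0.13), ribosomal proteins (0.10), oxidative phosphorylation (-0.0078), interferon (0.095), YAP targets (-0.075), integrins (0.16) and myelin (-0.051). Small medians also moved that far when a library was left out: ribosomal proteins 0.0017 to 0.083, oxidative phosphorylation as far as -0.031. Gdnf, which passed no test, turned to 0.0511 with upper-quartile factors, 0.0012 with DESeq2 size factors, 0.013 with a mean of at least 5 CPM, and lay between -0.136 and 0.0841 when a library was left out. The difference of Mnt from MiaTAM co-culture, which passed no test, turned from 0.015 to -0.0035 with upper-quartile factors. The cause of these shifts was not tested. At this depth genes near 1 CPM rest on few counts a library, and a listed 0 may not be a measured absence.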

Other observations

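Contractile and YAP target genes leaned lower. Of 30 tested members 14 fell and 7 rose, with a median of -0.13, beside 30.9% of all tested genes that were lower and 30% that were higher. By 2-fold or more, 3 members rose and 0 fell. Flna, which crosslinks actin, had 1098, 1117 and 1014 CPM alone and 558, 564 and 557 CPM in BxTAM co-culture (-0.94 ± 0.042), and the YAP target Cyr61 changed by -0.79 ± 0.056 and the tropomyosin gene Tpm4 by -0.44 ± 0.047. In the integrin and migration list 12 of 27 were higher and 5 lower, with a median of 0.10. Itga1 and Itga7, integrins that bind collagen and laminin, rose by 1.06 ± 0.079 and 0.58 ± 0.040, and Itga5, a fibronectin receptor, by 0.61 ± 0.041. Genes of ERK output and its feedback were higher in 17 of 29 members and lower in 7, with a median of 0.21: Dusp5, a nuclear ERK phosphatase, had 322, 334 and 339 CPM alone and 490.5, 486 and 480.5 CPM in co-culture (0.55 ± 0.054), and Phlda1 rose by 0.63 ± 0.049.

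Antioxidant genes split evenly, 11 of 27 higher and 11 lower, with a median of -0.011. The metallothionein gene Mt2A, whose family shares reads, changed by -0.93 ± 0.053 and thioredoxin, Txn1, by -0.55 ± 0.074, while Ftl1 rose. Nuclear-encoded subunits of oxidative phosphorylation were higher in 5 of 28 and lower in 10, with a median of -0.064. Sdha, of succinate dehydrogenase, rose by 0.41 ± 0.041 and Atp5b, of ATP synthase, changed by -0.29 ± 0.041.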
